A study of Mus musculus with 7 samples.

Results

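A set of 10 genes of protein folding in the endoplasmic reticulum (ER) and of the unfolded protein response were followed in the soleus of Yy1 knockout and wild type mice: the chaperones Hspa5, Hsp90b1, Calr and Canx, the disulfide isomerases Pdia3, Pdia4 and Pdia6, the co-chaperone Dnajb9, the transcription factor Xbp1 and the degradation factor Herpud1. Every probe set annotated with exactly 1 of these symbols was taken, which gave 22 of the 22626 probe sets tested and covered 10 of 12393 genes. Total RNA of the soleus, a slow postural muscle of the hindlimb, was measured on 4 arrays from mice labelled as Yy1 knockout and on 3 arrays from wild type mice, all 6 months old and on a mixed C57Bl/6 and 129 background. Yy1 encodes Yin Yang 1, a zinc finger transcription factor. The sources used here do not state which piece of Yy1 was removed, in which cells and by which driver, nor that each array came from a separate animal, so p-values measure the spread between these arrays.

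Proteins that enter the secretory pathway fold in the ER, where HSPA5 (also called BiP) and HSP90B1 hold unfolded chains, calnexin and calreticulin retain glycoproteins, and protein disulfide isomerases form and shuffle disulfide bonds. When unfolded chains accumulate, the sensors IRE1, PERK and ATF6 start the unfolded protein response, in which IRE1 splices the Xbp1 mRNA and XBP1 and ATF6 raise transcription of the chaperone genes through the ER stress response element. In muscle the ER is continuous with the sarcoplasmic reticulum, the calcium store of the fibre. YY1 has been described as a coactivator at the Hspa5 promoter in stressed cultured cells.

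Signals are given as log2(intensity + 1), differences as log2 fold changes of knockout minus wild type with standard errors (SE), and group values as mean ± SD, with n = 4 for knockout and n = 3 for wild type. Tests are limma's with Benjamini-Hochberg adjustment over all 22626 probe sets, and a probe set was called where the adjusted p was under 0.05. Yy1 itself was lower in knockout in 3 of its 4 probe sets, at 30.7%, 49.2% and 58.8% of the wild type signal (adjusted p = 0.000120, 0.000271 and 0.00629; two-sided exact permutation p = 0.0286 each, the smallest that 35 divisions of the arrays can give). The dim probe set 1457834_at stood at 95.9% (adjusted p = 0.711). Array medians of linear intensity lay between 139.1 and 143.2. Markers of slow fibres, which the soleus is rich in, had a summed intensity of 346288 to 357335 in knockout arrays and 325571 to 349868 in wild type arrays; 3 of 10 were higher in knockout and 2 lower, with 5 higher when wild type array 1 was left out and 1 when wild type array 2 was. Other muscles were not compared.

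Most of these genes had a higher signal in the knockout soleus at their brightest probe set, and the differences were small. Of 22 probe sets, 8 were higher in knockout (36.4%), 1 was lower (4.55%) and 13 were not called, while 28.6% of all probe sets were called, 14.3% higher and 14.3% lower. The 8 higher probe sets belonged to Hspa5, Pdia6, Pdia3, Dnajb9, Pdia4, Hsp90b1 and, with a pair of probe sets, Xbp1, and their log2 fold changes ran between 0.20 and 0.46. Herpud1 alone had a lower call. The median log2 fold change was 0.14 over the 22 member probe sets and 0.0069 over all probe sets. Taking the brightest probe set of each gene, 6 of 10 were higher (60%), 1 was lower and 3 were not called, against 31.8% called among 12393 genes, 16.3% higher and 15.5% lower. That share was not matched for signal level, and the dimmest of these 10 was brighter than 67.8% of probe sets. Above the median level, 43.4% of all probe sets were called, 21.4% higher and 22.0% lower. Without wild type array 1, 5 of the 22 were higher.

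**Figure D1:**
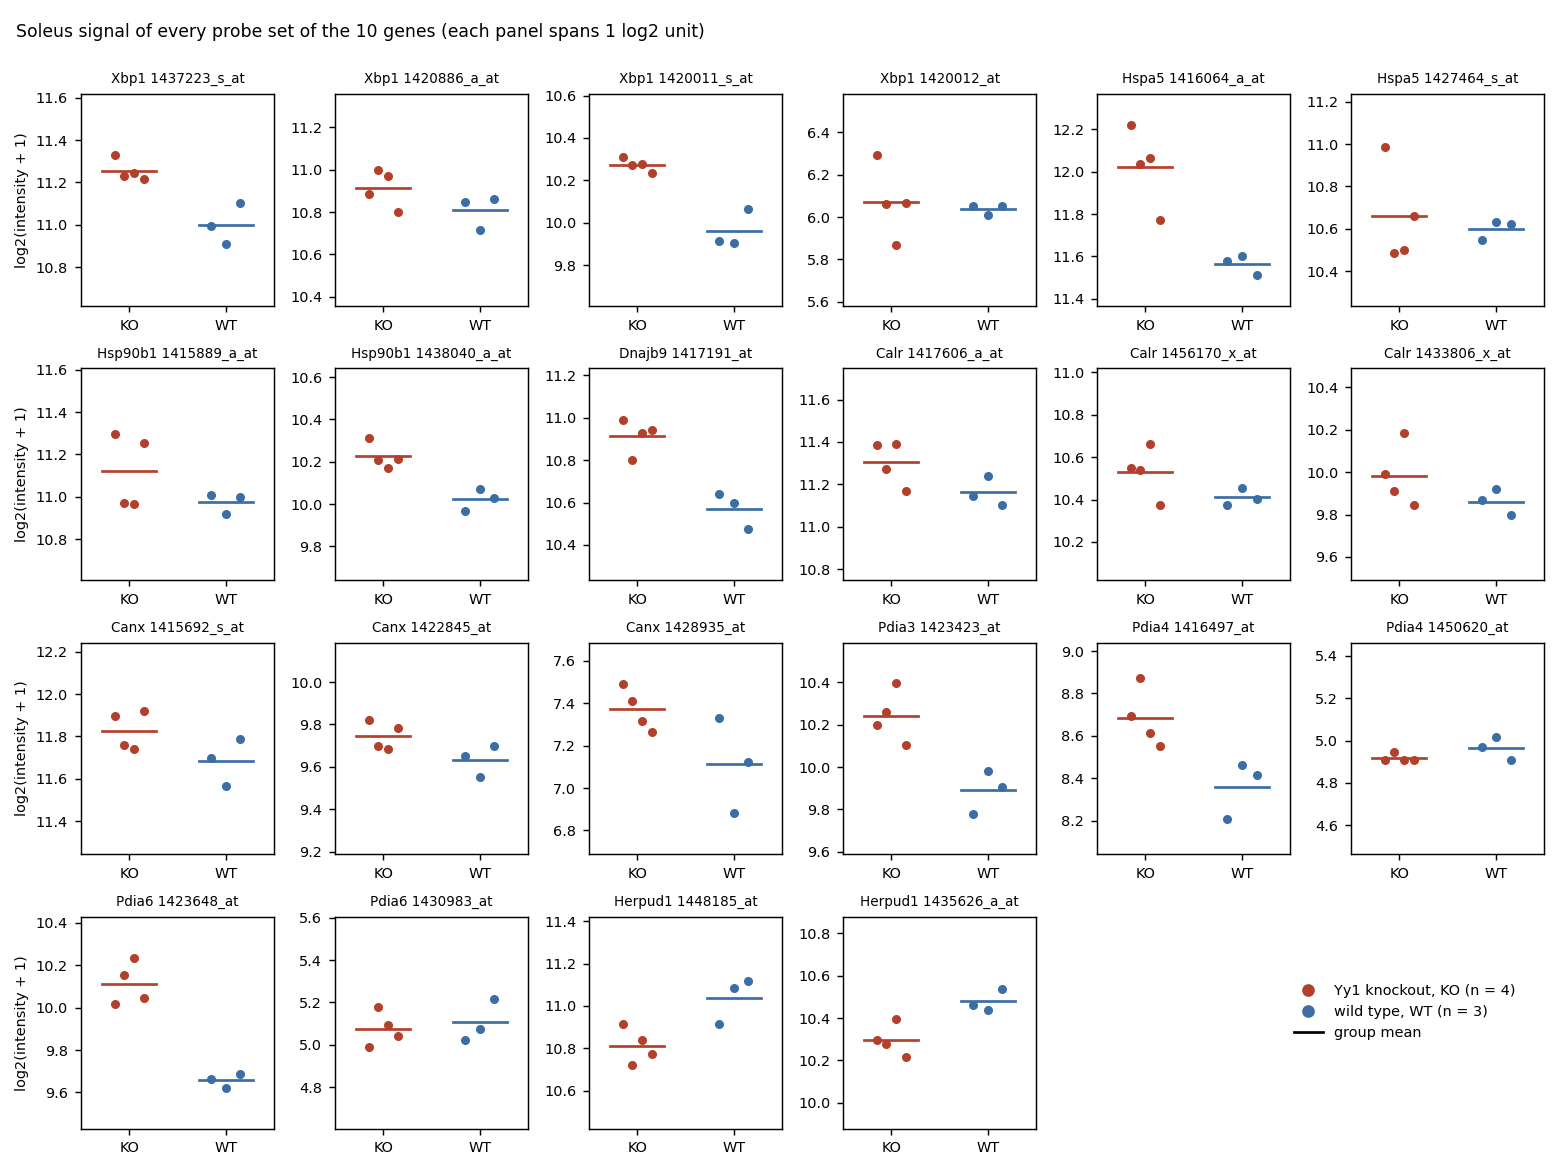
Signal of each of the 22 probe sets as log2(intensity + 1), with knockout arrays (n = 4) left and wild type arrays (n = 3) right in each panel; points are arrays, lines are group means and each panel spans 1 log2 unit. Knockout arrays lie wholly above wild type arrays in 8 panels and wholly below them in 1, the Herpud1 probe set 1435626_a_at.

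The plot of every array shows that the 8 probe sets whose knockout values all lay above the wild type values are the same 8 that were called higher. Across all probe sets, the groups failed to overlap with knockout higher in 18.4% and with knockout lower in 17.9%. No single knockout array was the highest throughout: knockout array 1 was highest for Hspa5, Hsp90b1 and Dnajb9, knockout array 3 for Pdia3, Pdia6 and Calr. Since these are bulk arrays, a change in the number of cells of a type and a change in RNA per cell cannot be told apart.

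Hspa5, the ER member of the HSP70 family and the main chaperone of the unfolded protein response, had the largest fold change of the member probe sets together with Pdia6. Its brighter probe set 1416064_a_at measured 12.22, 12.03, 12.07 and 11.77 in knockout arrays 1 to 4 and 11.58, 11.60 and 11.51 in wild type arrays 1 to 3. Every knockout array was above every wild type array, with knockout array 4 the closest to them. The means were 12.02 ± 0.19 in knockout and 11.57 ± 0.05 in wild type, a log2 fold change of 0.46 (SE 0.10, 95% interval 0.23 to 0.68, adjusted p = 0.00903), or 1.37-fold. The second probe set, 1427464_s_at, did not show this. It measured 10.99, 10.49, 10.50 and 10.66 in knockout and 10.55, 10.63 and 10.62 in wild type, so that the groups overlapped and knockout array 1 stood highest. Its log2 fold change was 0.06 (SE 0.12, 95% interval -0.21 to 0.33, adjusted p = 0.747). The fold changes of the 2 probe sets differed by -0.40 (SE 0.12), with an adjusted p of 0.0494 over 7987 such pairs, of which 14.9% were called. That difference was not called without any of the wild type arrays 1, 2 or 3 or without knockout arrays 2 or 3 (adjusted p = 0.0884, 0.119, 0.145, 0.114 and 0.106), and the mean of both Hspa5 probe sets had a log2 fold change of 0.26 (adjusted p = 0.0619).

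The Hspa5 promoter is shown because it carries an exact ER stress response element, CCAAT and CCACG separated by 9 bases of any kind, found at bases -65 to -47 counted from the gene's start. The sequence is the 250 bases before the start on the plus strand, chr2:34771840-34772089, from RefSeq (GRCm38.p6), with the fixed letters of the element in capitals.
Hspa5 promoter: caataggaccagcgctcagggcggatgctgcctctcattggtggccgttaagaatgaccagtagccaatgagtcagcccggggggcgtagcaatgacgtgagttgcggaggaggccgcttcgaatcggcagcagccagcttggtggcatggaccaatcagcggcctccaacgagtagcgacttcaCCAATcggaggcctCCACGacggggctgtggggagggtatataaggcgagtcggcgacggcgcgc
Such an element was present in 5 of the 10 promoter windows (250 bases before to 50 after the start, both strands) and in 39 of all 32851 windows, or 0.119%. A match is a description of letters and not evidence of a bound site. The element is described above as the route to the ER chaperone genes, so its share among these 10 was not a test of enrichment.

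Hsp90b1 encodes GRP94, the ER form of HSP90. Its probe set 1438040_a_at measured 10.31, 10.21, 10.17 and 10.22 in knockout and 9.97, 10.07 and 10.03 in wild type. The groups did not overlap, with a gap smaller than the range of the knockout arrays. The log2 fold change was 0.20 (SE 0.06, adjusted p = 0.0294), and the call was lost without wild type arrays 1 or 3 (adjusted p = 0.0952 and 0.0695) and without knockout arrays 1, 2 or 4 (0.0569, 0.0539 and 0.0570). The brighter probe set 1415889_a_at measured 11.30, 10.97, 10.97 and 11.26 in knockout and 11.01, 10.92 and 11.00 in wild type. Knockout arrays 1 and 4 were high and knockout arrays 2 and 3 lay among the wild type arrays, giving a log2 fold change of 0.15 (SE 0.10, 95% interval -0.07 to 0.37, adjusted p = 0.300). The fold changes of the Hsp90b1 probe sets differed by 0.06 (adjusted p = 0.722).

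Dnajb9, a J-domain partner of HSPA5 that also holds IRE1 inactive, was measured by 1 probe set, 1417191_at. It read 10.99, 10.80, 10.93 and 10.94 in knockout and 10.64, 10.60 and 10.48 in wild type. The groups were well apart, with knockout array 2 the lowest of its group. The log2 fold change was 0.34 (SE 0.07, 95% interval 0.19 to 0.50, adjusted p = 0.00564), and the call was made without each array in turn (highest adjusted p = 0.0246).

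Calr and Canx, the soluble and the membrane-bound lectin chaperones of glycoproteins, were not called in any of their 6 probe sets. The brightest Calr probe set, 1417606_a_at, measured 11.39, 11.27, 11.39 and 11.17 in knockout and 11.15, 11.24 and 11.10 in wild type. Knockout array 4 lay within the wild type range and the other knockout arrays above it, so that the groups overlapped. The log2 fold change was 0.14 (SE 0.07, 95% interval -0.02 to 0.31, adjusted p = 0.187), and the other Calr probe sets, 1456170_x_at and 1433806_x_at, both had 0.12 (adjusted p = 0.261 and 0.331). The suffix x marks probe sets that may also bind other transcripts. Canx 1415692_s_at measured 11.90, 11.76, 11.74 and 11.92 in knockout and 11.70, 11.57 and 11.79 in wild type, again with overlap through wild type array 3. Its log2 fold change was 0.14 (SE 0.08, 95% interval -0.03 to 0.32, adjusted p = 0.194), and that of Canx 1422845_at was 0.11 (adjusted p = 0.215). The dimmer Canx probe set 1428935_at had 0.26 (SE 0.11, adjusted p = 0.104) and was called only without wild type array 1 (adjusted p = 0.0321), the highest of the wild type arrays there. All 6 Calr and Canx fold changes were positive, and the intervals of the brightest probe sets allow an increase of up to 0.31 for Calr and 0.32 for Canx.

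Pdia6, a disulfide isomerase that binds HSPA5 and attenuates IRE1 signalling, had the smallest adjusted p of the member probe sets. Its probe set 1423648_at measured 10.02, 10.15, 10.23 and 10.05 in knockout and 9.66, 9.62 and 9.69 in wild type. The lowest knockout array was well above the highest wild type array. The means were 10.11 ± 0.10 in knockout and 9.66 ± 0.03 in wild type, a log2 fold change of 0.46 (SE 0.07, 95% interval 0.30 to 0.61, adjusted p = 0.00141), or 1.37-fold, and the call was made without each array in turn (highest adjusted p = 0.00950). The dim probe set 1430983_at, brighter than 20.9% of probe sets, measured 4.99, 5.18, 5.10 and 5.04 in knockout and 5.02, 5.07 and 5.22 in wild type. Its groups overlapped, with a log2 fold change of -0.03 (adjusted p = 0.790) whose sign turned without wild type array 3. At so low a signal it is not known whether this probe set could follow a change in Pdia6.

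The Pdia6 promoter also carries 1 exact ER stress response element, at bases -98 to -80, and is shown because Pdia6 had the smallest adjusted p of the member probe sets. The 250 bases before the start lie on the plus strand at chr12:17266339-17266588 (RefSeq, GRCm38.p6), with the fixed letters in capitals.
Pdia6 promoter: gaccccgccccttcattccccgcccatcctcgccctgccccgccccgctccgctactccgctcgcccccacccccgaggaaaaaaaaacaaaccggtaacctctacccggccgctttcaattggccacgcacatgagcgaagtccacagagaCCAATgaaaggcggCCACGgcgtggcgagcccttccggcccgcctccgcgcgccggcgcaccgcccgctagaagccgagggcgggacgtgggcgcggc

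Pdia3 encodes ERp57, the isomerase that works with calnexin and calreticulin. Its probe set 1423423_at measured 10.20, 10.26, 10.40 and 10.10 in knockout and 9.78, 9.98 and 9.91 in wild type. All knockout arrays were higher, knockout array 3 by the most. The log2 fold change was 0.35 (SE 0.08, 95% interval 0.16 to 0.54, adjusted p = 0.0134), and the call was lost without wild type array 1, the lowest of its group (adjusted p = 0.0551).

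Pdia4 encodes ERp72, another isomerase of the ER lumen. Its probe set 1416497_at measured 8.69, 8.87, 8.61 and 8.55 in knockout and 8.21, 8.46 and 8.41 in wild type. The groups did not overlap, though knockout array 4 was near wild type array 2. The log2 fold change was 0.32 (SE 0.09, adjusted p = 0.0319), and the call was lost without wild type arrays 1 or 3 (adjusted p = 0.113 and 0.0667) and without knockout arrays 1 or 2 (0.0621 and 0.0629). The dim Pdia4 probe set 1450620_at, brighter than 17.8% of probe sets, had a log2 fold change of -0.05 (adjusted p = 0.536). It read the same 4.91 in knockout arrays 1, 3 and 4 and in wild type array 3, so it is not known whether it could follow a change in Pdia4.

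Xbp1, the transcription factor made active when IRE1 splices its mRNA, was measured by 4 probe sets, and spliced and unspliced Xbp1 mRNA were not told apart here. The probe set 1437223_s_at measured 11.33, 11.23, 11.24 and 11.22 in knockout and 10.99, 10.91 and 11.10 in wild type. All knockout arrays were higher and close together, with knockout array 1 on top. The log2 fold change was 0.25 (SE 0.06, adjusted p = 0.0170), and the call was lost without wild type arrays 1 or 2 (adjusted p = 0.0526 and 0.0638).

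Xbp1 1420011_s_at measured 10.31, 10.27, 10.28 and 10.23 in knockout and 9.91, 9.90 and 10.06 in wild type. The groups were again apart, with wild type array 3 nearest to the knockout arrays. Its log2 fold change was 0.31 (SE 0.06, 95% interval 0.18 to 0.45, adjusted p = 0.00466), called without each array in turn (highest adjusted p = 0.0230). The other Xbp1 probe sets overlapped: 1420886_a_at had a log2 fold change of 0.10 (adjusted p = 0.297) and the dim 1420012_at had 0.03 (adjusted p = 0.812). Both called Xbp1 probe sets carry the suffix s, and the others do not. Whether probe sets with this suffix, here and for Hspa5 and Canx, also bind other transcripts was not tested. The sign of the dim Xbp1 probe set turned without knockout array 1. Set against the brightest Xbp1 probe set, the fold changes of 1420011_s_at, 1420012_at and 1420886_a_at differed by 0.06, -0.22 and -0.15, none of which passed the threshold (adjusted p = 0.599, 0.143 and 0.245); the 95% interval for 1420012_at, -0.43 to -0.01, left out 0.

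Herpud1, a membrane protein of the ER that helps assemble the machinery degrading misfolded proteins and a known target of the unfolded protein response, ran the other way. Its brighter probe set 1448185_at measured 10.92, 10.72, 10.84 and 10.77 in knockout and 10.91, 11.08 and 11.12 in wild type. Knockout array 1 and wild type array 1 met, and the rest of the knockout arrays were lower. Herpud1 fell by 0.23 on the log2 scale at this probe set (SE 0.07, 95% interval -0.39 to -0.06, adjusted p = 0.0480), to 0.856 of the wild type signal.

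This Herpud1 call was close to the threshold. It was lost without wild type arrays 2 or 3 (adjusted p = 0.144 and 0.154) and without knockout arrays 2, 3 or 4 (0.110, 0.0764 and 0.103), and also when the arrays were quantile normalized or centred on their medians. The other Herpud1 probe set, 1435626_a_at, measured 10.30, 10.28, 10.40 and 10.22 in knockout and 10.46, 10.44 and 10.54 in wild type. Here no knockout array reached the wild type range, and the log2 fold change was -0.18 (SE 0.06, adjusted p = 0.0549), with the call made without knockout array 3 (adjusted p = 0.0318). The pair of Herpud1 fold changes differed by 0.04 (adjusted p = 0.768), and the mean of both had -0.20 (adjusted p = 0.0269).

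**Figure D2:**
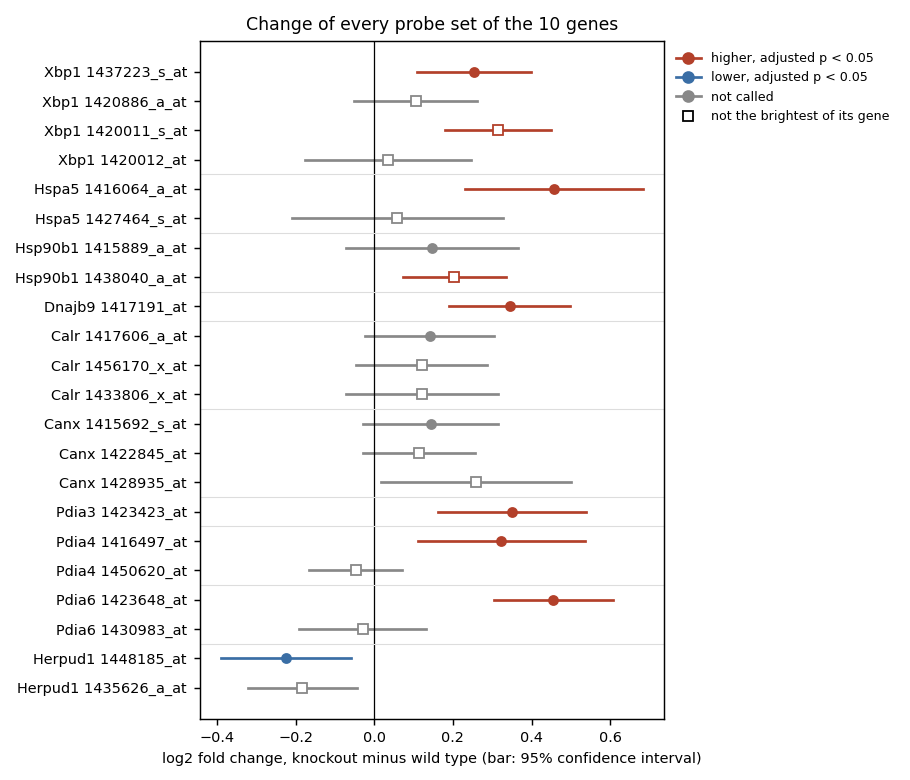
Log2 fold changes of the 22 probe sets, knockout minus wild type, with 95% intervals from limma; colour marks the call at an adjusted p under 0.05. Hspa5 and Pdia6 reach 0.46 at their brightest probe sets, and Herpud1 lies below 0 at both of its probe sets.

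The plot of fold changes with intervals shows how the probe sets of 1 gene compare. For Xbp1, Hsp90b1, Calr, Canx and Herpud1, no difference from the fold change of the gene's brightest probe set passed the threshold. For Hspa5 it did with all arrays and in 2 of the 7 fits without 1 array. The dim second probe sets of Pdia4 and Pdia6 also differed from the brightest (-0.37, adjusted p = 0.0280, and -0.49, adjusted p = 0.00282). For Pdia6 the difference passed without each array in turn (highest adjusted p = 0.0148). That of Pdia4 was lost without wild type arrays 1 or 2 or knockout arrays 1 or 2 (adjusted p up to 0.110). At so low a signal, whether these 2 probe sets could follow a change is not known. The 3 member probe sets at or under the median level of all probe sets (Xbp1 1420012_at, Pdia4 1450620_at and Pdia6 1430983_at) were not called, too few to set against a share. Above that level 47.4% of the 19 member probe sets were called, beside 43.4% of all probe sets above it and 28.6% of all probe sets at any level. In that brighter range 42.1% of the member probe sets and 21.4% of all probe sets were higher in knockout. Averaging the probe sets of each gene before the fit left Xbp1 (0.18, adjusted p = 0.0395), Dnajb9 (0.34, 0.00387), Pdia3 (0.35, 0.0101) and Pdia6 (0.21, 0.0283) higher.

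**Figure D3:**
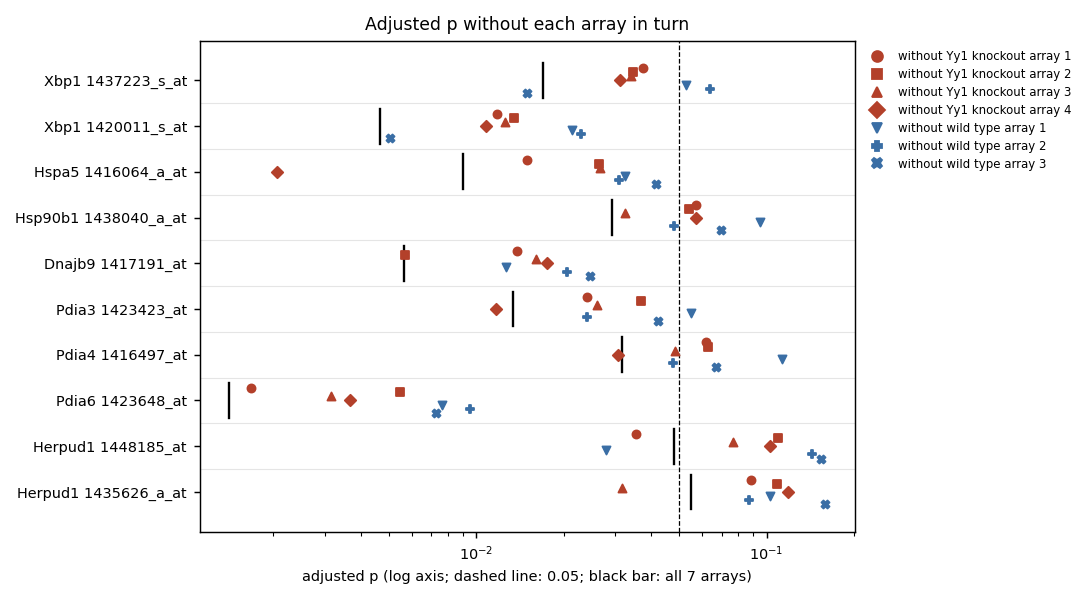
Adjusted p (limma, Benjamini-Hochberg; logarithmic axis) of the called member probe sets and of Herpud1 1435626_a_at with all 7 arrays and without each array in turn; the line marks 0.05. Hspa5 1416064_a_at, Dnajb9, Xbp1 1420011_s_at and Pdia6 1423648_at stay under the line whichever array is left out.

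The plot of adjusted p without each array separates 4 of the 9 called probe sets, those of Hspa5, Dnajb9, Xbp1 1420011_s_at and Pdia6, from the other 5, which each lost the call without at least 1 array. Wild type array 1 was among those arrays for Pdia3, Pdia4, Hsp90b1 and Xbp1 1437223_s_at.

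The 10 promoters were compared with all 32851 for 4 motifs. The ER stress response element had 2 matches in Hsp90b1 and 1 each in Hspa5, Calr, Canx and Pdia6. The shorter second form of the element, ATTGG and CCACG separated by 1 base, was found in Herpud1 and in 12 windows of the whole table, or 0.0365%. The matches are set side by side to show the bases between the fixed letters, which are in capitals; each is read in the direction given by its strand relative to the gene.
Hspa5, same strand, chr2:34772025-34772043: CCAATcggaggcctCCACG
Hsp90b1, same strand, chr10:86705638-86705656: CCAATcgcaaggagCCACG
Hsp90b1, opposite strand, chr10:86705533-86705551: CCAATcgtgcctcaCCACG
Calr, opposite strand, chr8:84847075-84847093: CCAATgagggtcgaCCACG
Canx, same strand, chr11:50325800-50325818: CCAATcaccacgctCCACG
Pdia6, same strand, chr12:17266491-17266509: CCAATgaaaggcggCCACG
Herpud1, same strand, chr8:94386377-94386387: ATTGGgCCACG

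**Figure D4:**
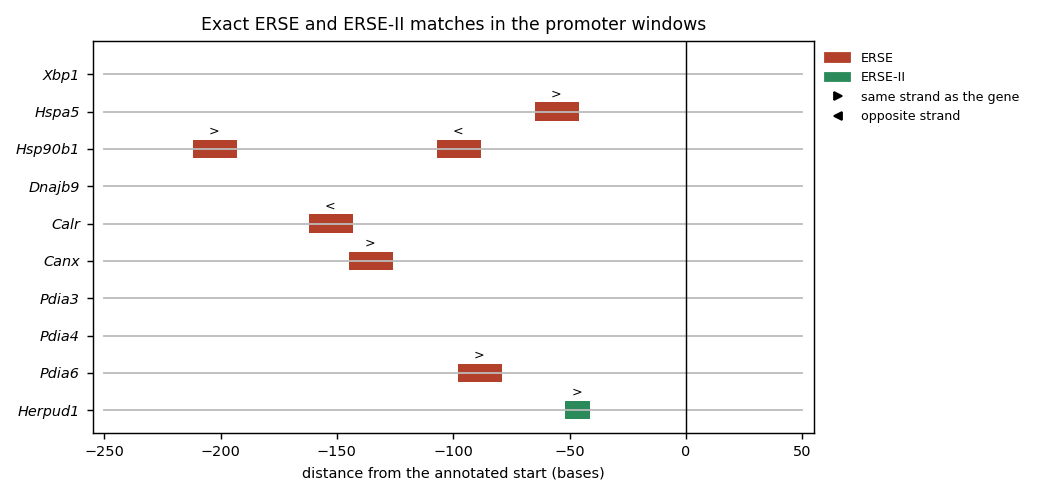
Position and strand of exact matches of the ER stress response element and its second form in the promoter windows of the 10 genes, in bases from the gene's start. Hspa5, Hsp90b1, Calr, Canx and Pdia6 hold the ER stress response element and Herpud1 its second form, and the windows of Xbp1, Dnajb9, Pdia3 and Pdia4 hold no exact match.

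The map of motif positions places all matches between bases -212 and -42 from the start. Of the 5 genes with the ER stress response element, Hspa5 and Pdia6 were called higher at their brightest probe set and Hsp90b1, Calr and Canx were not, while Dnajb9, Xbp1, Pdia3 and Pdia4 were called higher with no exact match in the window. The exact letters TGACGTGG, 1 form of the XBP1-type motif, were in none of the 10 and in 0.676% of all windows. A form of the YY1 motif, GCCAT and TT separated by 1 base, was in none of the 10 and in 6.05% of all windows. Shorter or variant forms of these motifs were not searched, so their absence from the 10 windows is not shown.

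Genes that work alongside these were read from 9 lists of the ER and the early secretory pathway, each gene by its brightest probe set; values with a sign or in parentheses are log2 fold changes followed by adjusted p, and averages are log2 signals. Of 123 measured genes of 136 listed, 36 were higher in knockout (29.3%), 9 were lower (7.32%) and 78 were not called, with a median log2 fold change of 0.08. Among all genes 16.3% were higher and 15.5% lower, with a median of 0.013, and the counts of each list below stand beside these shares. The lists were not matched for signal level. Of all probe sets above the median level, 21.4% were higher and 22.0% lower. Without wild type array 2, 29 listed genes in place of 45 were called in either direction.

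Among partners of HSPA5 and HSP90B1, 3 of 11 were higher and none lower. These were Dnajb11, a co-chaperone of HSPA5 (0.32, SE 0.05, adjusted p = 0.00311), Dnajc10, a J-domain disulfide reductase (0.49, SE 0.06, adjusted p = 0.000673), and Sec63, the J-domain protein of the translocon (0.39, SE 0.09, adjusted p = 0.0102). Dnajc10 averaged 9.85 ± 0.01 in knockout and 9.35 ± 0.11 in wild type, and all 3 were called without each array in turn.

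Of 13 other disulfide isomerases and oxidases, 3 were higher and 1 was lower. P4hb, the founding isomerase of the family, had 0.22 (adjusted p = 0.0263), Txndc12 had 0.35 (0.0207) and Erp29 had 0.23 (0.0459). The P4hb call was lost without wild type arrays 2 or 3 or knockout arrays 2 or 3 (adjusted p up to 0.0937), that of Txndc12 without wild type arrays 1 or 2 or knockout array 2 (up to 0.0816), and that of Erp29 without any wild type array or knockout arrays 1 or 2 (up to 0.153). One gene was thus higher without wild type arrays 1 or 3, and none without wild type array 2 or knockout array 2. Tmx2, a transmembrane thioredoxin-like protein, fell to 9.67 ± 0.17 in knockout, against 10.48 ± 0.08 in wild type (-0.81, SE 0.10, adjusted p = 0.000549). Without wild type array 2, 2 genes of this list were lower.

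In the glycoprotein folding and N-glycosylation list, 3 of 16 genes were higher (18.75%) and 2 lower (12.5%), near the 16.3% and 15.5% of all genes. The subunits of the oligosaccharyltransferase, which attaches the glycan, were divided: Stt3a (0.30, adjusted p = 0.00708), Rpn2 (0.23, 0.0156) and Ddost (0.30, 0.0369) were higher and Rpn1 (-0.28, 0.0157) was lower. Mcfd2, a cargo receptor subunit for glycoproteins, was lower too (-0.27, adjusted p = 0.0140). The probe sets of Stt3a and Rpn1 carry the suffix x, so they may also bind other transcripts. Ddost lost its call without any of the wild type arrays or knockout arrays 2, 3 or 4 (adjusted p up to 0.121), Rpn2 without wild type array 3 (0.0558), Rpn1 without wild type array 2 (0.0635) and Mcfd2 without wild type arrays 1 or 2 (up to 0.0538). Without wild type array 3, 1 gene was higher; 1 was lower without wild type array 1 and none without wild type array 2.

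Among 11 sensors and transcription factors, 5 were higher and none lower. Atf6, the membrane-bound factor released by proteolysis, averaged 9.76 ± 0.10 in knockout and 9.16 ± 0.16 in wild type (0.59, SE 0.09, adjusted p = 0.00154). Creb3, a related membrane-bound factor, had 0.46 (adjusted p = 0.00163) and Ddit3, which encodes CHOP, had 0.49 (0.0166). The Ddit3 call was lost without wild type array 2 (adjusted p = 0.0604), and 3 of the list were then higher.

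Effectors of the PERK branch, which slows translation and acts through ATF4, moved in both directions. Of 10 measured, 3 were higher and 1 lower. Asns, the asparagine synthetase, averaged 8.75 ± 0.39 in knockout and 7.23 ± 0.54 in wild type (1.52, SE 0.27, adjusted p = 0.00378). Trib3, a pseudokinase, had 0.70 (adjusted p = 0.00300) and Ppp1r15a, the phosphatase subunit that restores translation, had 0.32 (0.00295). Chac1, a glutathione-degrading enzyme, averaged 7.91 ± 0.29 in knockout and 9.27 ± 0.25 in wild type (-1.36, SE 0.17, adjusted p = 0.000665). Asns, Trib3, Ppp1r15a and Chac1 were called without each array in turn.

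In ER-associated degradation, the pathway Herpud1 belongs to, 5 of 19 genes were higher and 1 lower. Herpud2, the paralogue of Herpud1, averaged 10.85 ± 0.12 in knockout and 10.37 ± 0.02 in wild type (0.48, SE 0.07, adjusted p = 0.00174), the opposite direction to Herpud1. Ubxn4, an anchor for the p97 ATPase, had 0.38 (adjusted p = 0.00156) and Ube2g2, a ubiquitin-conjugating enzyme, had 0.42 (0.00198). Rnf5, a ubiquitin ligase, had -0.26 (adjusted p = 0.0329). Without wild type array 2 or knockout arrays 1, 2 or 4 in turn, 3 were higher, and without wild type array 2 or knockout arrays 2, 3 or 4 none was lower, the Rnf5 call being lost there (adjusted p up to 0.112).

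The translocon and signal peptidase list, the entry gate of the ER, had 6 of 16 genes higher and 1 lower, with a median log2 fold change of 0.18. Sec61a1, the channel itself, averaged 9.75 ± 0.12 in knockout and 9.04 ± 0.11 in wild type (0.71, SE 0.08, adjusted p = 0.000458). Ssr1, a subunit of the translocon-associated complex, had 0.68 (adjusted p = 0.000257) and Spcs3, a signal peptidase subunit, had 0.77 (0.000141). Srpr, the receptor of the signal recognition particle, had -0.48 (adjusted p = 0.00172). Sec61a1, Ssr1, Spcs3 and Srpr were called without each array in turn.

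Of 15 genes of ER exit and retrieval, 5 were higher and 2 lower. Surf4, a cargo receptor (0.41, adjusted p = 0.00553), Tmed10, a p24 cargo protein (0.38, 0.00292), and Sec24c, a coat subunit (0.23, 0.0184), were higher. Sar1b, the GTPase that starts coat assembly, was lower (-0.42, adjusted p = 0.00481), as was Kdelr2, a receptor that returns HSPA5 and HSP90B1 to the ER (-0.20, 0.04996). Without wild type array 2, 2 were higher, and without wild type arrays 1 or 3 or knockout arrays 2 or 4, 3 were. One was lower without wild type arrays 2 or 3 or knockout arrays 1, 2 or 4, and the Kdelr2 call was also lost without wild type array 1 (adjusted p up to 0.121). Sec24c lost its call without wild type arrays 1 or 2 (up to 0.0586).

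Collagen folding and modification had 3 of 13 genes higher and 1 lower. Plod2, the lysyl hydroxylase of collagen telopeptides, averaged 7.43 ± 0.19 in knockout and 6.34 ± 0.11 in wild type (1.09, SE 0.11, adjusted p = 0.000234), while P4ha2, a prolyl hydroxylase subunit, averaged 8.91 ± 0.20 in knockout and 9.54 ± 0.06 in wild type (-0.63, SE 0.10, adjusted p = 0.00239). Plod3 (0.38, adjusted p = 0.00420) and Ppib (0.37, 0.0219) were higher, and the Ppib call was lost without wild type arrays 1, 2 or 3 or knockout arrays 2 or 3 (adjusted p up to 0.0793).

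**Figure D5:**
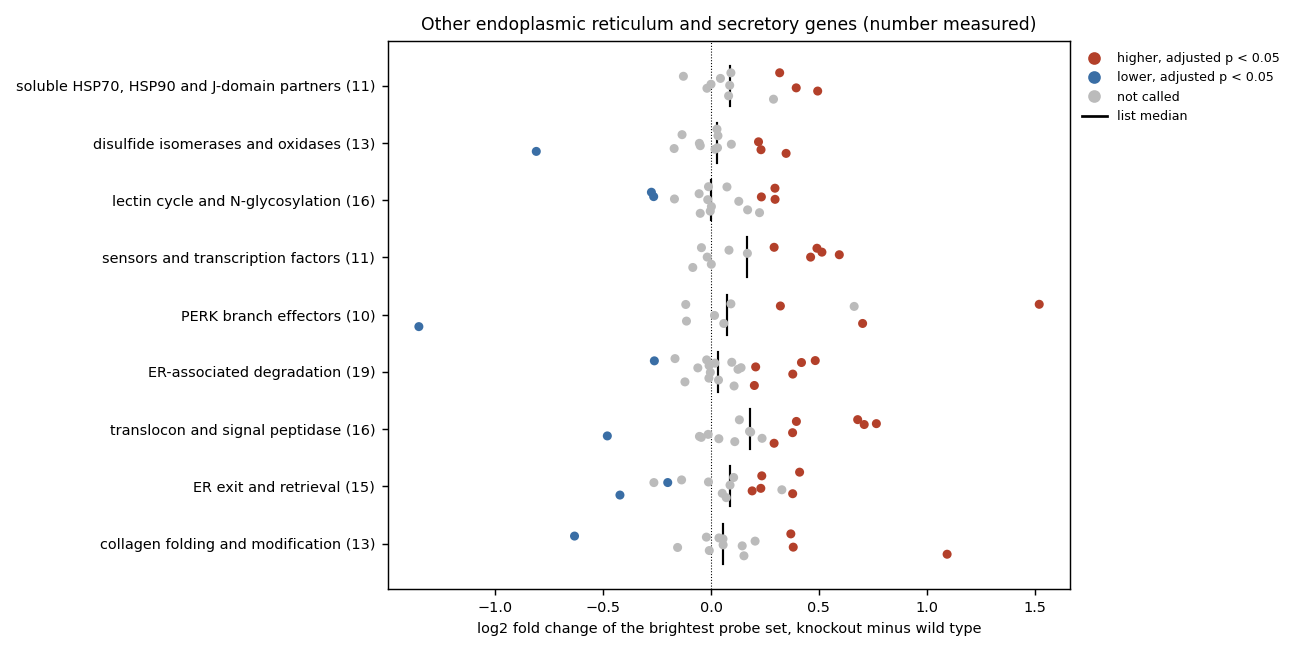
Log2 fold change of the brightest probe set of each gene in the 9 lists, knockout minus wild type; colour marks the call and the bar the median of the list. The translocon list has the highest median, 0.18, and Asns at 1.52 and Chac1 at -1.36 lie farthest out.

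The plot of the 9 lists shows members on both sides of 0 in each list, with medians between -0.0014 and 0.18.

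Markers of other cell types moved with genotype, and their part in the results above was not tested. All 12 macrophage markers were higher in knockout (median 1.12; Cd68 2.05, Lyz2 1.34), with a summed intensity of 8078 to 13508 in knockout arrays and 3812 to 4595 in wild type arrays. Of 9 fibroblast markers, 7 were higher (median 0.84; Col3a1 1.27), with sums of 27146 to 41101 in knockout and 21042 to 24860 in wild type, and 4 were higher without wild type array 1 or 2. Tendon markers were higher in 4 of 5 (Comp 1.75), with sums of 7664 to 12866 in knockout and 5480 to 5855 in wild type. The macrophage and fibroblast sums were highest in knockout array 3.

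Plasma cells, in which Xbp1 is active, were followed through 9 B and plasma cell markers. Of these, 3 were higher (Jchain, Tnfrsf17 with 0.44 and Blnk with 0.43). The sums of the 9 were 419 to 513 in knockout and 398 to 410 in wild type. These markers were dim: none was higher among probe sets above the median level, and Jchain read the same 5.15 in knockout arrays 2 and 4. One was higher without wild type arrays 1, 2 or 3 or knockout array 3, and 1 was lower without wild type array 1. Endothelial markers were lower in 9 of 10 (median -0.91; sums of 2954 to 3261 in knockout and 5620 to 6127 in wild type), adipocyte markers were lower in 3 of 6 and higher in 1 (7816 to 10898 in knockout and 14623 to 16011 in wild type), and 1 of 5 Schwann cell markers was lower, or 2 without wild type array 2 (1556 to 1900 in knockout and 2000 to 2518 in wild type). With all arrays, the Schwann cell list had a median log2 fold change of -0.035, and 2 of its 5 values were positive. Mbp (-1.73) was its only call. Array intensities have no zero, and the lowest value on any array was 11.3. The signal at the 3′ end over that at the 5′ end, a sign of RNA quality, differed by 0.06 for Gapdh (-0.02 to 0.05 in knockout and -0.06 to -0.04 in wild type, two-sided exact permutation p = 0.0571) and by 0.07 for Actb (0.09 to 0.21 in knockout and 0.07 to 0.10 in wild type, exact p = 0.143).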

How the data were processed

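Total RNA from soleus was hybridised to 7 one-colour Affymetrix arrays after biotin labelling of cRNA, per the labels' protocols. The authors deposited 1 linear intensity per probe set and array, made with RMA per the submitters' processing notes; the sources used here give no version of it. Intensities were taken to log2(value + 1). Of 22690 probe sets, 64 controls were left out; 20380 had 1 gene symbol, 691 several and 1555 none in the platform annotation. Genotypes were compared with limma 3.58.1 in R 4.3.3 (lmFit and eBayes, two-sided, no filter on dim probe sets) with Benjamini-Hochberg adjustment over 22626 probe sets and a threshold of 0.05; the fold changes of a gene's probe sets were compared in the same way over 7987 pairs. Yy1 and the Gapdh and Actb controls also had exact permutation tests over 35 divisions of the arrays. The script was tested on simulated data.

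The 10 genes, the 17 gene lists (9 pathway, 8 marker) and the tests were chosen with earlier results of these data known. Named were all member probe sets, Yy1 and, per list, up to 3 genes in each direction with the smallest p among those called. Promoters came from a RefSeq table (GRCm38.p6), which matched 10 of 10 members; 4 motifs were searched on both strands. Alternatives were log2(value + 16), no pseudocount, a filter at the median level, quantile normalization, median centring, 1 probe set per gene, averaged probe sets, an intensity trend, array weights, a replicate block and leaving out each array. Arrays hold no sequencing depth, so their number limits precision. Scan dates were not used, so batches were not tested. At most 1819 probe sets had equal values in any pair of arrays. Deviations of arrays sharing a replicate number correlated at 0.048, -0.098 and 0.011, so no pairing was used. The table held 0 columns of other series.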

Additional observations from a re-analysis of the deposited data

Results flagged for a closer look

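Among 87 probe sets and 2 control ratios examined over the 4 knockout arrays, 4 probe sets had 1 array far from the others by Dixon's test, which chance alone flags in about 1 of 20 groups. The dim Pdia4 probe set 1450620_at read 4.95 in knockout array 2 and 4.91 in each of the other knockout arrays, a gap of little size in a narrow range. The fibroblast gene Col1a1 read 9.96 in knockout array 3, against 9.28, 9.38 and 9.27 in knockout arrays 1, 2 and 4. The endothelial gene Esam read 8.91 in knockout array 3, against 8.68, 8.71 and 8.69 in the others. The slow myosin light chain gene Myl3 read 15.26 in knockout array 1, against 15.14, 15.12 and 15.14 in the others.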

How the results depend on the processing

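Of the 9 member probe sets called, 4 were called without each array in turn and 6 under the 9 other alternatives that gave a value for the probe set itself. Averaging the probe sets of a gene is not among them, and left Hspa5 (adjusted p = 0.0619), Hsp90b1 (0.0806) and Pdia4 (0.125) without a call. Of the 13 not called, 2 were called under some alternative and 3 changed sign. Averaging probe sets of a gene gave 5 member genes called and 4 higher, and 4112 genes called in place of 6477 probe sets; 1 probe set per gene gave 4082, and 1 Yy1 probe set in place of 3. Lower members were 2 with log2(value + 16), with the filter at the median level or with array weights, and 0 with quantile normalization or median centring. With the replicate block, member probe sets lower were 0 and listed genes called were 32 in place of 45, and the calls of Xbp1 1437223_s_at (adjusted p = 0.0591), Hsp90b1 1438040_a_at (0.124) and Herpud1 1448185_at (0.169) were lost. Leaving out 1 array gave 4878 to 6224 probe sets called, 6 to 9 member probe sets called, 5 to 8 higher, 0 to 1 lower, and 29 to 42 listed genes. Log2 fold changes ran between -0.070 and 0.027 for Pdia6 1430983_at, -0.038 and 0.10 for Xbp1 1420012_at and -0.050 and 0.12 for Hspa5 1427464_s_at, the sign turning without wild type array 3 for the first and without knockout array 1 for the others. Leaving out arrays for the paired probe sets was chosen after seeing the data. The causes of these changes were not tested.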
